A study of Mus musculus with 2 samples.

Results

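The Hox cluster genes encode homeodomain transcription factors that give cells along the body axis their regional identity. They were taken as every protein-coding gene whose symbol is Hox followed by a cluster letter from a to d and a number. By that rule 39 genes were found among 55536 annotated genes, 22028 of which are protein-coding, and all 39 were listed in both libraries. The tissue was the left cerebral cortex of female B6CASTF1/J hybrid mice at 4 days of age, with no treatment named in the labels. The design has 1 group of 2 libraries, numbered as biological replicates 1 and 2, each made from 300 ng of total RNA with ERCC spike-in RNAs added. The labels number the tissue pieces separately and give both the same donor entry, so the spread between the libraries may be less than that between unrelated animals. No condition was contrasted. Bulk tissue was sampled, so a level is an average over neurons, glia, vessels and any membrane left on the tissue.

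In vertebrates the Hox genes lie in 4 clusters, and a gene's place in its cluster follows the position along the body axis where it is switched on. Genes of the low paralogue groups pattern the hindbrain, the central groups pattern the neck and trunk, and the high groups pattern the tail, the limbs and the urogenital tract. The forebrain forms ahead of the anterior limit of Hox expression, and there the clusters are held under Polycomb repression, while Trithorax proteins maintain expression where the genes are on. Hox proteins bind DNA together with the TALE homeodomain cofactors of the Pbx, Meis and Pknox families.

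The clusters were placed on assembly mm10 with the GENCODE M21 annotation. Hoxa spans 105.3 kb (chr6:52155590-52260880) and holds 11 of the genes. Hoxb spans 173.9 kb (chr11:96194316-96368256) and holds 10. Hoxc spans 115.8 kb (chr15:102921103-103036852) and holds 9. Hoxd spans 96.8 kb (chr2:74668310-74765142) and holds 9.

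Hox genes resemble each other in sequence, which bears on how short reads are divided among them. Their most alike stretch codes for the recognition helix of the homeodomain, the part that sits in the major groove of DNA. Of 569 pairs of Hox genes from different clusters, 15 pairs, made up of 16 genes, share an unbroken run of 31 or more coding bases, and the longest run is 52 bases. A read lying wholly within such a stretch cannot be placed on 1 gene, while a read reaching beyond it may be.

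The clusters also carry 7 annotated microRNA genes. Mature sequences are shown for those of the miR-10 and miR-196 families, because each family has members in more than 1 cluster that share a seed. The seed, bases 2 to 8, is in capitals, and the sequences are from RefSeq on GRCm38.p6.
miR-10a-5p, Hoxb cluster: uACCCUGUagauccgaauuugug
miR-10b-5p, Hoxd cluster: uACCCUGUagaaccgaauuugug
miR-196a-5p, Hoxb and Hoxc clusters: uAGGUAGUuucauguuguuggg
miR-196b-5p, Hoxa cluster: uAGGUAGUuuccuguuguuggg

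Promoter windows from RefSeq (GRCm38.p6), 250 bases before to 50 after a start site, were matched by symbol to 22 of the 39 Hox genes, with 24 windows in all. They held between 4 and 45 CG pairs, with a median of 14.5, against a median of 13 over 21263 windows of coding genes. Of the Hox windows 11, or 45.8%, were CpG-rich (at least 50% G or C, and an observed-to-expected CG ratio of at least 0.6). Among the coding windows 45.1% were, so the share was close to the background. Most of the Hox windows were of the Hoxa and Hoxd clusters, and Hoxc4 was the only Hoxc gene with a window. The bases before the start site are shown for Hoxa13, whose window held the most CG pairs, and for Hoxd4, whose window held the fewest alongside Hoxa9 and Hoxd11 and whose gene received reads in both libraries. CG pairs are in capitals, 35 in the Hoxa13 sequence and 3 in that of Hoxd4.
Hoxa13, chr6:52260881-52261130, minus strand: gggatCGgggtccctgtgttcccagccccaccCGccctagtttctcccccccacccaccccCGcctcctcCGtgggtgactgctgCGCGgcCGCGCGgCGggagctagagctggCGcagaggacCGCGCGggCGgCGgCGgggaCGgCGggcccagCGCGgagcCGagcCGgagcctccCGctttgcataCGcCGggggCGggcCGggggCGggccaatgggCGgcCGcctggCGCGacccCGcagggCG
Hoxd4, chr2:74721728-74721977, plus strand: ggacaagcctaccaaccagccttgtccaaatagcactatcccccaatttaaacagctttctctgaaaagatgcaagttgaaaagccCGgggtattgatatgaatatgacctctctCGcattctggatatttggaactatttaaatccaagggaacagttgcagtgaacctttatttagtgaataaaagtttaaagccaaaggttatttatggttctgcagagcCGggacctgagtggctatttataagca

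Depth and tissue were checked over the whole tables. The first table, which gives expected counts per gene, held 29310533 counts in replicate 1 and 28844674 in replicate 2, and its median coding gene had 163 and 167 counts. All 8 cortical neuron markers were at 1 TPM (a level per length, in transcripts per 1000000) or above in both libraries. Of these markers, Slc17a7, the vesicular glutamate transporter of cortical excitatory neurons, had 142 TPM ± 3.63 (SD, n = 2). The libraries differed in markers of choroid plexus and blood. The summed count of 12 choroid plexus and ependyma markers was 5332 in replicate 1 and 508 in replicate 2, and that of 12 blood markers was 7728 and 3377. Much of the first difference was Ttr, as the other 11 choroid plexus and ependyma markers had 975 counts in replicate 1 and 469 in replicate 2, and all 12 were higher in replicate 1. Without Kit, which had 2689 and 2623 counts, the other 11 blood markers had 5039 and 754, and 9 of the 12 were higher in replicate 1. The Hox genes had 9 counts in each library, and the part of these markers in them was not tested.

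No Hox gene reached 1 TPM in either library. Across all protein-coding genes, 59.6% reached 1 TPM in both. The summed Hox count was 9 in replicate 1 and 9 in replicate 2. As a share of all counts, this was 0.307 CPM, or counts per 1000000, in replicate 1 (95% exact Clopper-Pearson interval 0.140 to 0.583) and 0.312 CPM in replicate 2 (0.143 to 0.592). These intervals cover counting error only, as reads without molecular identifiers are not independent molecules. The summed Hox level was 0.29 TPM in replicate 1 and 0.28 TPM in replicate 2, or 0.285 TPM ± 0.00707 (SD, n = 2) for all 39 genes together. A median coding gene had 3.93 TPM in replicate 1 and 4.26 TPM in replicate 2, so the whole family summed to less than a single median gene.

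Of the 39 genes, 30 had a count of 0 in both libraries, against 19.8% of coding genes, and all 39 had at most 3 counts in each library, against 27.5% of coding genes. From counting error alone, a count of 0 allows up to 3 counts, or 0.102 CPM in replicate 1 and 0.104 CPM in replicate 2. This limit does not cover how a quantifier assigns reads to genes. For a Hox gene, 3 counts correspond to between 0.0626 and 0.211 TPM in replicate 1 and between 0.0658 and 0.222 TPM in replicate 2, depending on its length. A level below this could leave a gene at 0 counts at this depth, although some Hox genes below it did receive a count. The deposited upper credibility bound of TPM was below 1 for all 39 genes in both libraries, against 32.0% of coding genes. The highest such bound belonged to Hoxa3, a gene of thymus and neck development, with 0.691 TPM in replicate 1 against 0.726 TPM in replicate 2. In bulk tissue, fewer cells of a type and less RNA per cell cannot be told apart, so these limits apply to the average over the cortex.

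**Figure D1:**
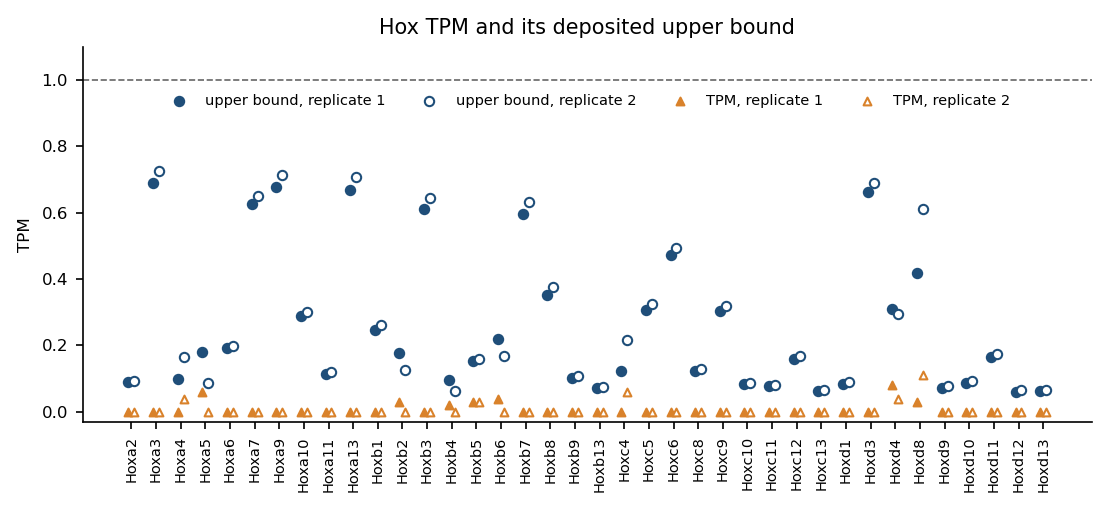
TPM (triangles) of the Hox genes shown and the upper credibility bounds deposited with them (circles), in replicate 1 (filled) and replicate 2 (open), with a dashed line at 1 TPM. All bounds plotted lie below the line, the highest being 0.726 for Hoxa3 in replicate 2.

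Any count at all was given to 9 Hox genes in the first table, 23.1% of the family against 80.2% of coding genes. Only 3 of them, Hoxd8, Hoxd4 and Hoxb5, had a count in both libraries, as 75.1% of coding genes did. Hoxd8, a gene of the trunk and limb axis, had 1 count in replicate 1 and 3 in replicate 2, or 0.07 TPM ± 0.0566 (SD, n = 2). Hoxd4, which helps pattern the lower hindbrain and upper neck vertebrae, had 2 counts in each library, or 0.06 TPM ± 0.0283. Hoxb5, known for roles in neural crest and shoulder position, had 1 count in each library and 0.03 TPM in each. These 3 genes are the ones whose few reads recurred, and none exceeded what a count of 0 allows.

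The other 6 genes were counted in 1 library only. Hoxa5, a gene of lung and respiratory development, had 2 counts in replicate 1 and 0 in replicate 2. Hoxc4 had 0 counts in replicate 1 and 2 in replicate 2. Hoxb2, a hindbrain gene, and Hoxb4 and Hoxb6, genes of the neck and trunk, each had 1 count in replicate 1 and 0 in replicate 2. Hoxa4 had 0 counts in replicate 1 and 1 in replicate 2. No gene of this set had more counts than the 3 that a 0 allows, so their order by level could not be resolved.

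By paralogue group, the counts of the first table sat in the middle of the clusters. Groups 4 to 8, with 15 genes, had 8 counts in replicate 1 and 9 in replicate 2. Groups 1 to 3, the hindbrain groups with 8 genes, had 1 count in replicate 1 and 0 in replicate 2. Groups 9 to 13, with 16 genes, had 0 counts in both libraries. Group 4 was the group in which each member (Hoxa4, Hoxb4, Hoxc4 and Hoxd4) had a count, with 3 in replicate 1 and 5 in replicate 2. These divisions were drawn after the values were seen, and no test was made of them. By cluster, the counts of both libraries together were 3 for Hoxa, 5 for Hoxb, 2 for Hoxc and 8 for Hoxd.

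The second table, made by another quantifier and normalised separately, gave the Hox genes more reads. The summed estimated count was 73.2 in replicate 1 and 86.2 in replicate 2, or 79.7 ± 9.19 (SD, n = 2), which is 8.13 times the first table's sum in replicate 1 and 9.58 times in replicate 2. The summed level was 2.49 TPM in replicate 1 and 3.35 TPM in replicate 2. Still no Hox gene reached 1 TPM, where 63.3% of coding genes in that table did so in both libraries. At 0.1 TPM in both libraries, 6 of 39 Hox genes passed, against 75.8% of coding genes. A count above 0 in either library was given to 19 Hox genes, against 84.9% of coding genes, and 20 were at 0 in both, against 15.1%. Of the 19 genes, 10 were at 0 in the first table, or 25.6% of the family, against 5.13% of coding genes.

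The genes that received the most reads in the second table were Hoxb1, Hoxc9 and Hoxd11, of paralogue groups 1, 9 and 11. Hoxb1, which specifies the hindbrain segment that gives rise to facial motor neurons, was assigned 17.4 counts in replicate 1 and 18.0 in replicate 2, or 0.668 TPM ± 0.0253 (SD, n = 2). Hoxc9, a determinant of thoracic motor neuron identity, was assigned 9.64 counts in replicate 1 and 17.6 in replicate 2, or 0.442 TPM ± 0.189. Hoxd11, a gene of the forearm and kidney, was assigned 12.8 counts in replicate 1 and 8.49 in replicate 2, or 0.231 TPM ± 0.0632. All 3 had 0 counts in both libraries of the first table. Their libraries were close for Hoxb1, and further apart for Hoxc9 and Hoxd11. Each of the 3 genes thus had more than the 3 counts that a 0 in the first table allows. On the second table's own scale, Hoxb1 also stood above its deposited upper bounds, which were 0.248 TPM in replicate 1 and 0.261 TPM in replicate 2. Hoxc9 had 0.309 and 0.576 TPM in replicates 1 and 2 against bounds of 0.303 and 0.318. Hoxd11 had 0.276 and 0.186 TPM against bounds of 0.165 and 0.173. Hoxc8 and Hoxd9 stood above their bounds in both libraries too, and the remaining Hox genes did not. The limits of the first table therefore do not cover the difference between quantifiers.

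Below these, Hoxc4 was assigned 6 and 5 counts in replicates 1 and 2, and Hoxb2 was assigned 6 in each. Hoxc8, which acts in motor neurons of the forelimb level, was assigned 3.20 counts in replicate 1 and 5.14 in replicate 2. Hoxd9, a gene of the lumbar spinal cord and limbs, was assigned 2.09 counts in replicate 1 and 7.56 in replicate 2. Hoxb9, which patterns the ribs with its paralogues, was assigned 1.01 and 4.35 counts. In the first table Hoxc8, Hoxd9 and Hoxb9 were at 0 counts in both libraries, while Hoxc4 had 2 counts and Hoxb2 had 1 over both.

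For the genes counted in both libraries of the first table the tables differed little. Hoxd4 was assigned 2 counts in each library, Hoxd8 was assigned 1 in replicate 1 and 3 in replicate 2, and Hoxb5 was assigned 2 in replicate 1 and 1 in replicate 2. Hoxb4 was assigned 2 and 3.01 counts. Hoxa5 kept its 2 counts in replicate 1, and Hoxb6 its 1 count there, while Hoxa4 kept its 1 count in replicate 2. Hoxc11 was assigned 3 counts in replicate 1 and 0 in replicate 2, and Hoxa13, a gene of digit and genital development, was assigned 1 and 2 counts. Hoxc6 was assigned 0 counts in replicate 1 and 2 in replicate 2, and Hoxa7 was assigned 1 count in replicate 1 and 0 in replicate 2. None of these had more than about 3 counts in a library.

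The zones and clusters ranked differently in the second table. With both libraries added, groups 9 to 13 had 69.6 counts, groups 1 to 3 had 47.4 and groups 4 to 8 had 42.3. Paralogue groups 3, 10 and 12 were at 0 in both tables and both libraries. The Hoxb cluster had 61.8 counts, Hoxc 51.6, Hoxd 39.0 and Hoxa 7. The order of the zones in the first table was thus not kept.

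**Figure D2:**
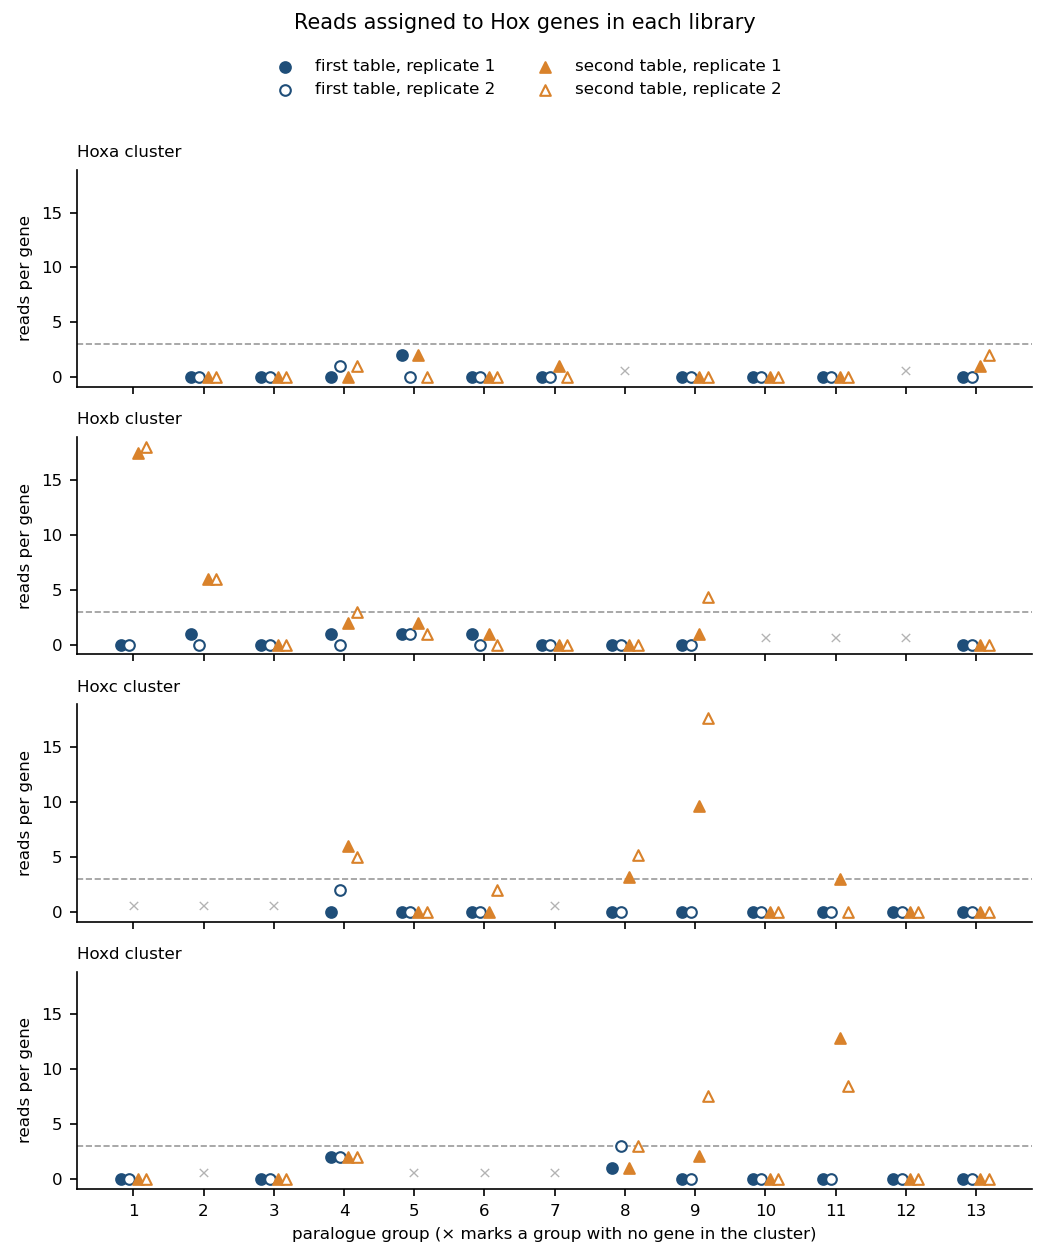
Reads assigned to the Hox genes shown, by paralogue group, with a panel per cluster, from the first table (circles) and the second (triangles), in replicate 1 (filled) and replicate 2 (open). The dashed line is at 3 counts, which no first-table value exceeds, while Hoxb1, Hoxc9 and Hoxd11 stand above it in the second table.

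The extra reads of the second table fell on particular annotated transcripts. The 39 genes have 87 transcripts, of which 11 had a count in the first table. The second gave counts to 23. Of the 159.37 counts of both libraries in the second table, 114.71 were on protein-coding transcripts, 25.52 on processed transcripts and 19.14 on transcripts with a retained intron. Hoxd11 received its reads on a single processed transcript of 3367 bases. Hoxb2 received its 12 reads on a transcript with a retained intron, while the protein-coding transcript of Hoxb2 had the 1 count of the first table.

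Words of 31 bases were then compared between each Hox transcript and the annotated transcripts of genes that neither overlap it nor belong to the Hox family. Such a shared word was found in 35 of the 87 Hox transcripts, or 40.2%, and these carried 85.6% of the second table's Hox counts and 38.9% of the first table's. The 9 transcripts with words in 100 or more other genes carried 63.31 counts in the second table and 0 in the first. The 26 with words in 1 to 99 other genes carried 73.06 and 7 counts, and the 52 with none carried 23 and 11. Among the most shared was the Hoxc9 transcript, with 96 of its 2344 words found in 1072 other genes, and the Hoxc8 transcripts had words in 2720. The Hoxb1 transcript, which received the most reads, had 8 of its 2056 words in 5 other genes. Of the 9 most widely shared transcripts, 3 were at 0 in the second table, among them a Hoxa3 transcript with words in 2735 other genes. The part of shared words in the difference between the tables was not tested. Within the clusters, overlapping gene models share words too. For the longer protein-coding transcript of Hoxd4, 1098 of its 2530 words also occur in a gene that overlaps Hoxd4. The strand setting of the counting is not given in the sources used here, so counts of overlapping and antisense genes in the clusters are uncertain.

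The libraries were compared with each other by an exact conditional binomial test per gene on the whole first table, with Benjamini-Hochberg adjustment, which compares these libraries and no conditions. Of 18492 genes whose counts summed to 20 or more, 533 differed at least 2-fold at an adjusted p under 0.05, or 2.88%, and of the 14701 protein-coding genes among them 116 did, or 0.789%. No Hox gene had enough reads to enter it. With the minimum lowered to 1, 9 Hox genes entered, 0 were called and 0 had an unadjusted p under 0.05, the lowest adjusted p of this exact test being 0.583 for Hoxa5. With the second table, Hox genes that entered numbered 3, with log2 ratios of replicate 2 over replicate 1 of -0.75 for Hoxd11, 0.00 for Hoxb1 and 0.74 for Hoxc9, and adjusted p of 0.447, 1 and 0.342 by the same exact test. In the first table Hox levels were thus too low to show a difference between the libraries. In the second table none of the 3 genes was called, against 3.4% of all genes tested there. Neither result shows that the levels were equal.

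Genes around the clusters were read on the same scale. Between the outermost Hox genes lie 46 other annotated genes, 45 of which had 0 counts in both libraries of the first table. Only 3 of the 46 are protein-coding, and 16 are miscellaneous RNA genes and 7 microRNA genes. The share of such genes at 0 elsewhere in the genome was not computed, so the 45 have no background beside them. The exception was Hoxaas3, an antisense transcript in the Hoxa cluster, with 1 count in replicate 1 and 0 in replicate 2. Hotair, a noncoding RNA of the Hoxc cluster, and Hotairm1, one of the Hoxa cluster, had 0 counts in both tables. In the second table Gm53, a noncoding gene between Hoxb13 and Hoxb9, was assigned 3.00 counts in replicate 1 and 10.2 in replicate 2. For 9 of the 46, among them the hairpin genes Mir10b, Mir196b, Mir196a-2 and Mir615, the effective length was 0, since 99 bases are subtracted from each length in the first table, so they could receive no level there. The hairpin genes Mir10a and Mir196a-1 kept effective lengths of 11 and 3 bases and were at 0 counts. The tables list hairpin genes, and mature microRNAs were not analysed here.

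The nearest 5 coding genes on each side of each cluster, 40 in all, contrasted with the Hox genes of the interior, which are coding genes too. Of these 40, 33 had at least 1 TPM in both libraries and 3 were at 0 counts, and their median was 24.4 TPM. Beside Hoxd, Lnpk, a gene of endoplasmic reticulum junctions 88.9 kb away, had 27.4 TPM ± 1.78 (SD, n = 2), and Mtx2, a mitochondrial outer membrane gene 60.7 kb away on the other side, had 35.5 TPM ± 2.81. Between Lnpk and Hoxd lies Evx2, itself a homeobox gene 8.8 kb from the cluster, with 0 counts in both libraries. Its counterpart Evx1, 52.6 kb from Hoxa, also had 0 counts in both.

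The other clusters had a similar outline with lower near neighbours. Skap2, 143.0 kb from Hoxa, had 2.41 TPM ± 0.233, and Hnrnpa2b1, an RNA-binding protein gene further out on that side, had 379 TPM ± 22.1. Beside Hoxb, Ttll6 and Skap1 had 0.22 and 0.70 TPM (mean of 2 libraries) and Calcoco2 had 1 count in replicate 2 only, while Atp5g1, a subunit gene of the mitochondrial ATP synthase, had 195 TPM ± 1.86 at 118.6 kb. Beside Hoxc, Smug1, a DNA repair glycosylase gene, had 13.3 TPM ± 0.453 at 116.4 kb, and Hnrnpa1 had 349.92 TPM ± 9.97 at 203.6 kb. Each cluster was thus an interval of near-zero levels with expressed genes on both sides.

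**Figure D3:**
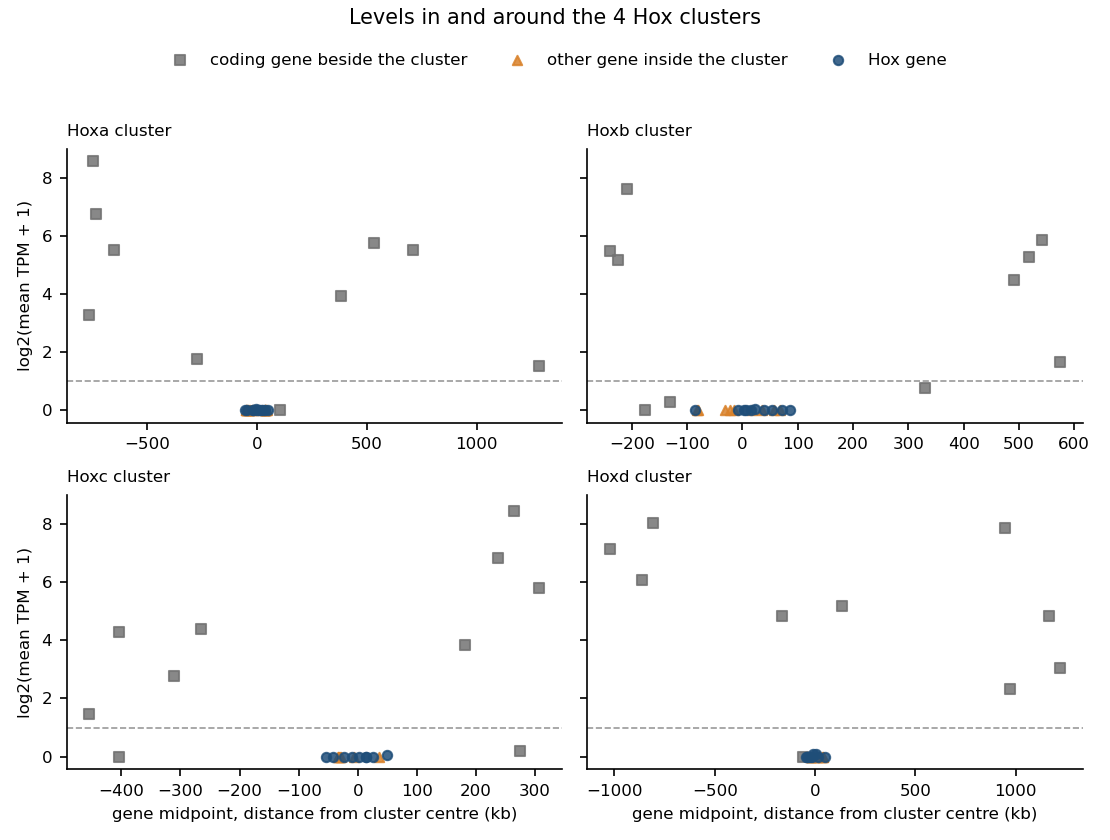
Mean level, as log2(TPM + 1), of Hox genes (circles), other annotated genes inside the cluster (triangles) and the nearest 5 coding genes on each side (squares), by distance of the gene's midpoint from the cluster centre in kb. The dashed line marks 1 TPM, and no gene inside a cluster lies above it, while 33 of the 40 coding genes beside the clusters were at or above it in both libraries.

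The cofactors of Hox proteins were present. All 9 TALE genes had at least 1 TPM in both libraries, with a median of 18.6 TPM. Among them Meis2 had 93.4 TPM ± 0.205 (SD, n = 2), Meis3 had 36.7 TPM ± 0.650 and Pknox2 had 23.9 TPM ± 2.60. Pknox1 had 9.14 TPM ± 0.297, and Meis1 was lowest with 4.60 TPM ± 0.339. The lowest cofactor thus stood above the summed level of all Hox genes, and this also held in the second table, where Meis1 had 6.005 TPM in replicate 1 and 6.275 in replicate 2.

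Regulators that maintain Hox states were also present. All 29 genes for Polycomb subunits had at least 1 TPM in both libraries, with a median of 21.5 TPM. Rbbp4 and Rbbp7, histone-binding proteins found in the Polycomb repressive complex that methylates histone H3 at lysine 27 and in other complexes, had 80.4 TPM ± 4.18 and 78.2 TPM, and Cbx6 and Phc1 of the canonical ubiquitin ligase complex had 56.3 and 52.3 TPM. Cbx7 and Phf19 were lowest with 2.98 and 1.38 TPM. Of the core methylating complex, named for their role after the values were seen, Ezh2 had 29.5 TPM ± 4.27, Suz12 had 21.5 TPM ± 2.41, Eed had 16.7 TPM ± 0.332 and Ezh1 had 14.9 TPM ± 3.01. All 12 genes of the Trithorax and lysine 27 demethylase list were detected as well, with a median of 33.2 TPM. They ranged from Ash2l, a subunit shared by the methyltransferase complexes, with 45.3 TPM ± 2.50, to Rbbp5 with 18.4 TPM. No gene of either list differed between the libraries at the threshold above. These levels are of transcripts and give no measure of the marks on the clusters.

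Of 15 genes that act upstream of Hox genes in the embryo, 9 had at least 1 TPM in both libraries, and the median was 2.94 TPM. Ctcf, which bounds chromatin domains, had 37.5 TPM ± 3.77, and Cyp26b1, which degrades retinoic acid, had 15.4 TPM ± 0.834. Rara, a retinoic acid receptor gene, had 11.1 TPM ± 0.615. Cdx1 and Cdx2, which open the trunk Hox genes, had 0 counts in both libraries.

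Homeobox genes outside the clusters showed a wider range. Of 147 such genes, 54, or 36.7%, had at least 1 TPM in both libraries, and 26 were at 0 counts in both, with a median of 0.415 TPM. Zeb2 was highest with 213 TPM ± 14.9. The nearest relatives of the Hox genes were low. None of the 15 ParaHox and related genes had 1 TPM in both libraries of the first table, and their median was 0.055 TPM. Meox1, a somite gene, was highest with 1.23 TPM in replicate 1 and 0.61 TPM in replicate 2, and Gsx1, Gbx1 and Gbx2 had 0.76, 0.63 and 0.57 TPM (mean of 2 libraries). In the second table Meox1 had 1.86 TPM in replicate 1 and 1.02 TPM in replicate 2, the only gene of this list at 1 TPM in both libraries there. Pdx1 and Cdx1 had 0 counts.

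Transcription factors that mark the forebrain were high where Hox genes were not. Of 16 listed genes 15 had at least 1 TPM in both libraries, with a median of 36.0 TPM. Nr2f1, which patterns cortical areas, had 108 TPM, and Cux2, a gene of upper-layer neurons, had 84.2 TPM. Six3 had 2.95 TPM ± 0.332, and Otx2, the lowest, had 1.23 TPM in replicate 1 and 0.32 TPM in replicate 2.

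Markers of the hindbrain and spinal cord, some of which (Barhl1 and En2) are also midbrain genes, were at low levels. None of 16 hindbrain and spinal cord markers had 1 TPM in both libraries, and their median was 0.0425 TPM. Gbx2 and Barhl1 were highest with 0.57 and 0.50 TPM (mean of 2 libraries), and Phox2a, Tlx3 and Mnx1 were among those with 0 counts in both. Their summed count was 113 in replicate 1 and 47 in replicate 2, where Hox counts were 9 in each. Barhl1 had 35 counts in replicate 1 and 3 in replicate 2 and was called in the exact test between libraries (adjusted p = 6.51e-07). The part of these markers in the Hox counts was not tested.

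**Figure D4:**
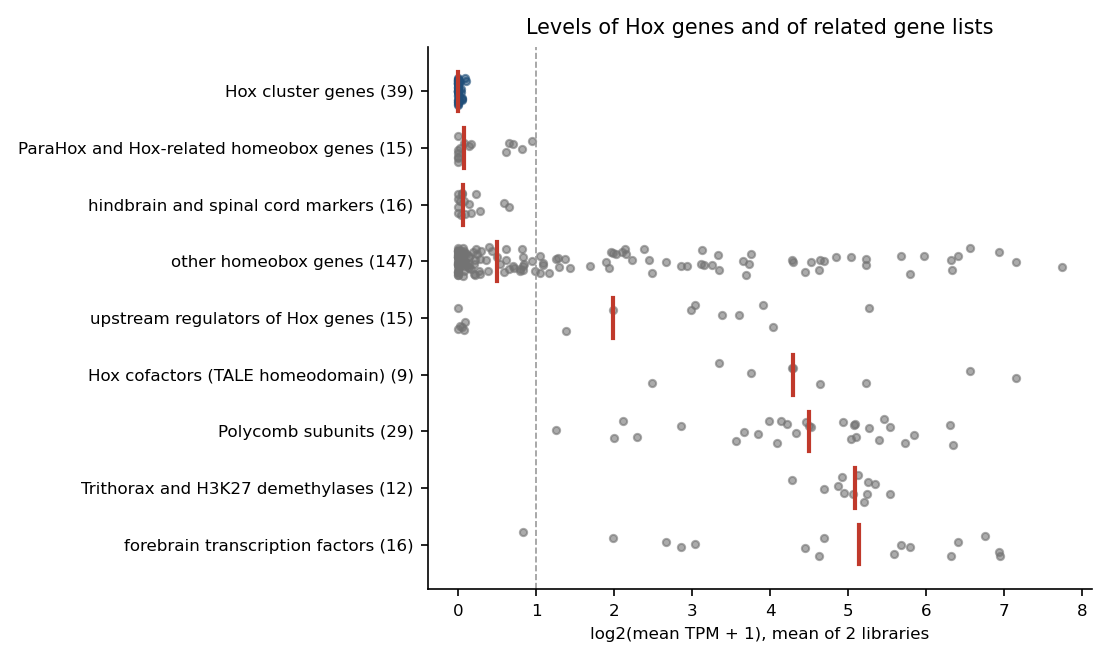
Level of each gene as log2(mean TPM + 1) over the 2 libraries, for the 39 Hox genes and 8 related lists with their number of genes in parentheses; red bars are medians and the dashed line marks 1 TPM. All Hox genes lie near 0, with the ParaHox genes and hindbrain markers below the line, while the cofactors, Polycomb and Trithorax genes lie above it.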

How the data were processed

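Total RNA-seq of 2 left cerebral cortex libraries was analysed as 1 group. Per the deposited file descriptions, assembly mm10 and GENCODE M21 were used. Which quantifiers were run, and in which versions, is not given in the sources used here. The column names are those of RSEM (the first table, by gene and transcript) and kallisto (the second, by transcript). The deposited expected counts and estimated counts split shared reads and need not be whole. The deposited TPM values, spike-ins included, are per effective length; those of the first table have 2 decimals. The deposited FPKM values served as an alternative. The authors' upper credibility bounds of TPM are a separate signal column of the first table, and its percent column, also deposited, was not used.

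Here estimated counts were summed by gene, genes were called detected at 1 TPM in both libraries, and shares of counts were given exact binomial intervals. Rounded counts were compared between libraries with edgeR 4.0.16 (R 4.3.3; TMM scaling, exact binomial test), which was tested on simulated data. Other values came from Python 3.11.15 with pandas 2.3.3 and scipy 1.17.1. Depth was 28844674 to 29310533 counts. Replicates are as labelled, and p-values measure only the spread expected from counting.

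The members and lists were chosen with earlier results of these data known. Named were every Hox gene with a count above 0 in either table and, of each other list, the 4 highest and 2 lowest genes by mean TPM, with exceptions stated. The neighbours beside the clusters, the core Polycomb genes and those called between libraries were chosen outside that rule after their values were seen. Of the noncoding list, 16 of 17 names were matched. Promoters of 17 Hox genes and protein sequences were not analysed here. A few genes and sequences that the naming rule would include are not reported here.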

Additional observations from a re-analysis of the deposited data

How the results depend on the processing

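The number of Hox genes detected was 0 under each of the 6 alternatives run. These were the second table at 1 TPM, either library alone, and other thresholds in the first table. Those thresholds were 0.1 TPM in both libraries, 1 TPM in either library, and 10 counts in both. No Hox gene exceeded 3 counts in the first table, so the rule of 10 counts could pass none there. By the second table's values, 6 of 39 Hox genes reached 0.1 TPM in both libraries. Hoxb1 had 17.4 and 18.0 counts there, above 10 in both. The result of 0 therefore depended on the threshold when the second quantifier was used. Hox genes at 0 counts numbered 30, and 20 in the second table, 30 by posterior mean count, 39 when up to 3 counts were allowed, and 32 to 34 without either replicate. The summed Hox TPM of 0.285 was 2.92 in the second table, 0.54 when rescaled to protein-coding genes and 0.185 as FPKM; the last 2 differ by construction. It was 0.28 to 0.29 without either replicate. The summed Hox count of 9 was 79.7 in the second table and 9 to 9 without either replicate. The cause of the difference between the tables was not tested. Other homeobox genes detected numbered 54, 62 in the second table, 85 at 0.1 TPM and 57 to 57 without either replicate. Genes differing between the libraries numbered 533, and from 365 to 690 under the 4 alternatives. No paired analysis was possible because there is 1 group. At this depth, Hox levels below that of 3 counts (from 0.0626 to 0.222 TPM by gene and library) could leave a gene at 0 counts. With 2 libraries the SD itself is uncertain.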

Other observations

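Among homeobox genes outside the clusters, 83 had enough reads for the exact test between the libraries, and 6 were called, where 0.789% of the protein-coding genes tested and 2.88% of all genes tested were. The counts of 5 of them follow. Otx2, a gene of forebrain, midbrain and choroid plexus, had 47 counts in replicate 1 and 6 in replicate 2 (adjusted p of the exact test 7.09e-08). Pou4f2, known from retinal ganglion cells and the midbrain, had 26 counts in replicate 1 and 0 in replicate 2 (adjusted p of the exact test 2.92e-07), and against the 3 counts that a 0 allows in that library it was higher in replicate 1. Barhl1, a gene of midbrain, hindbrain and hypothalamus, had 35 and 3 counts. Meox1 had 51 and 24 counts. Pou5f2 went the other way with 15 counts in replicate 1 and 39 in replicate 2 (adjusted p of the exact test 0.00912). En2, a midbrain and hindbrain gene with too few reads to enter the test, had 16 counts in replicate 1 and 0 in replicate 2. In these same libraries Ttr, the transthyretin gene of the choroid plexus, had 4357 counts in replicate 1 and 39 in replicate 2, and the Hox genes had 9 counts in each.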
